A study of Mus musculus with 18 samples.

Results

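The translation initiation factors outside the octamer core of eIF3 were followed in the mouse fibroblast line NIH3T3 by ribosome profiling and mRNA sequencing. Of 55 gene symbols that begin with Eif and a digit, 43 were kept, among 24035 genes in all: 3 genes of eIF4E-binding proteins, the Y-linked Eif2s3y and the 8 genes of the octamer (Eif3a, Eif3c, Eif3e, Eif3f, Eif3h, Eif3k, Eif3l and Eif3m) were left out. The choice used names and no measured value. The 43 genes fell into 10 groups: eIF1 (5 genes), eIF2 with other factors that carry the initiator tRNA (5), the kinases of eIF2 (4), eIF2B (5), eIF3 outside the octamer (6), eIF4A with eIF4B and eIF4H (5), eIF4E and its relatives and binding partner (5), eIF4G (3), eIF5 (4) and eIF6 (1).

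Initiation begins when eIF2, loaded with GTP and the initiator tRNA, joins eIF1, eIF1A, eIF3 and eIF5 on the small ribosomal subunit. The complex is brought to the capped end of an mRNA by eIF4E, eIF4G and the helicase eIF4A, scans to the start codon, and is joined by the large subunit with the help of eIF5B. The mTOR kinase acts on this machinery through the eIF4E-binding proteins and, by way of the S6 kinases, through phosphorylation of eIF4B, and it also governs translation of mRNAs that begin with a terminal oligopyrimidine tract, a C at the first base followed by an unbroken run of C and T. Torin1 is an ATP-competitive inhibitor of mTOR.

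There were 3 groups of cells with 3 libraries each of ribosome-protected fragments (RPF) and of mRNA, 18 libraries in all, and all cells grew in DMEM with serum. WT cells and cells whose Mtor gene was edited to encode C1483Y were given vehicle, and the Torin1 group was WT cells at 200 nM of Torin1 for 3 h. The labels name no clone and no separate cultures, so the spread that p-values rest on could be technical. A point edit leaves no trace in gene counts, so the counts of Mtor check nothing. Gene reads ran from 4.68 to 42.82 M per RPF library and from 4.42 to 94.3 M per mRNA library. Levels are given in CPM, the count of a gene scaled to the reads of its library, and every value is relative to its library, so a change shared by all mRNAs would not be seen. A gene was called where the adjusted p of edgeR's quasi-likelihood test, taken over all genes tested, was under 0.05.

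Several libraries stood apart from their labels. The 12 fibroblast markers summed to between 11278 and 22398 ppm of gene reads in the WT and Torin1 RPF libraries and to between 267 and 762 ppm in the RPF libraries labelled C1483Y, where 10 or 11 of 12 were detected and Lum was at 0 throughout. The 8 neuronal and glial markers summed to between 1.70 and 28.0 ppm in the former and to between 868 and 1225 in the latter. In the RPF libraries labelled C1483Y 1, 2 and 3, 5, 3 and 4 of these 8 were detected, and Rbfox3 was at 0 in all 3, as was Snap25. The 8 epithelial markers reached 0.467 ppm at most in the former and 17.7 to 125 in the latter, where Epcam and Cdh1 were at 0 in C1483Y 2 and 3, and the 8 leukocyte and endothelial markers stayed at or under 11.1 everywhere. The mRNA libraries labelled C1483Y 1 and 3 also stood apart, with fibroblast markers at 143 and 423 ppm and neuronal and glial markers at 966 and 650 ppm. Both detected 2 of the 8 neuronal and glial markers, with Rbfox3, Map2, Snap25, Gfap, Mbp and Olig2 at 0. In mRNA C1483Y 2 the fibroblast list was at 10241 ppm and the neuronal and glial list at 0.118 ppm. In the WT and Torin1 mRNA libraries the neuronal and glial list was at 0.249 ppm or less. Col1a1, the main collagen gene of fibroblasts, was at 16.4, 109 and 135 CPM in the RPF libraries labelled C1483Y and at 2585, 5331 and 4804 CPM in WT. Cdkn2a, a tumour suppressor locus, had 1447, 467 and 798 RPF reads in those libraries, at most 4 in a WT library and 0 in the Torin1 libraries. In mRNA, Cdkn2a had 0 reads in every library, those labelled C1483Y included. The marker, Col1a1 and Cdkn2a values in RPF go against the label of edited NIH3T3 cells, as do the marker values of mRNA C1483Y 1 and 3. Whether the libraries labelled C1483Y come from the same line as WT is uncertain. Their differences from WT are therefore given as those of the labelled libraries. In bulk samples, fewer cells of a type and less RNA per cell cannot be told apart. The library mRNA C1483Y 2 and mRNA Torin1 3 correlated at r = 0.999 across genes, with a chi-square of 12.96 per degree of freedom, against at least 732 for any other mRNA pair; they were kept as separate samples, and values without both are given. Reads of the single gene Tmem38b took from 0.0424% to 37.0% of an RPF library.

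Of the 43 genes, 39 passed the filter on low counts in each assay. Eif3j1 and Eif3j2, near-identical genes of the loosely bound eIF3 subunit, were at 0 reads in all 18 libraries; a count of 0 allows 3 reads, which is 0.0701 to 0.641 ppm in an RPF library, and reads that align to more than 1 place were not counted. Eif4e1b, known for its role in oocytes, had 7 RPF reads and 3 mRNA reads in all. Eif4e3, another cap-binding relative of eIF4E, had 49 RPF reads in C1483Y 1, 9 in C1483Y 3 and 0 in every other library of either assay. All 43 genes together took 1.34%, 1.38% and 1.46% of RPF gene reads in the WT libraries and 0.955%, 1.21% and 1.06% in the Torin1 libraries, so the groups did not overlap. The total includes Tmem38b, which took 9.43%, 0.0424% and 1.22% of the WT libraries and 26.9%, 0.0910% and 12.9% of the Torin1 libraries. This lowers the share of every other gene. Eif4a1 alone supplied 29.2% to 40.2% of the reads of the 43 genes across the RPF libraries. A gene's read share also grows with its length, so levels are not compared between genes.

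Under Torin1, RPF of 30 of the 39 initiation factors tested lay below WT in the fit, and no single factor passed the test. Thus 0 of 39 were called, against 0.749% of the 11085 genes tested (0.74% lower and 0.00902% higher); 8 had an unadjusted p under 0.05, 20.5% of the members against 4.15% of all genes. DESeq2 called 2 of them and limma-voom 3. The share of 0.749% is that of edgeR, and the shares of all genes called by DESeq2 and limma-voom were not compared. The median log2 change of the 39 genes was -0.29, beside 0.03 over all genes, and 30 of 39 lay below 0, beside 47.4% of all genes. In 16 genes every Torin1 library lay below every WT library, which is 41.0% of the members beside 10.7% of all genes tested. In 0 genes did every Torin1 library lie above, beside 8.48% of all genes. When each Torin1 library was set against the WT mean, the median of the 39 changes was -0.31, -0.30 and -0.47, beside 0, -0.14 and -0.02 over all genes.

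**Figure D1:**
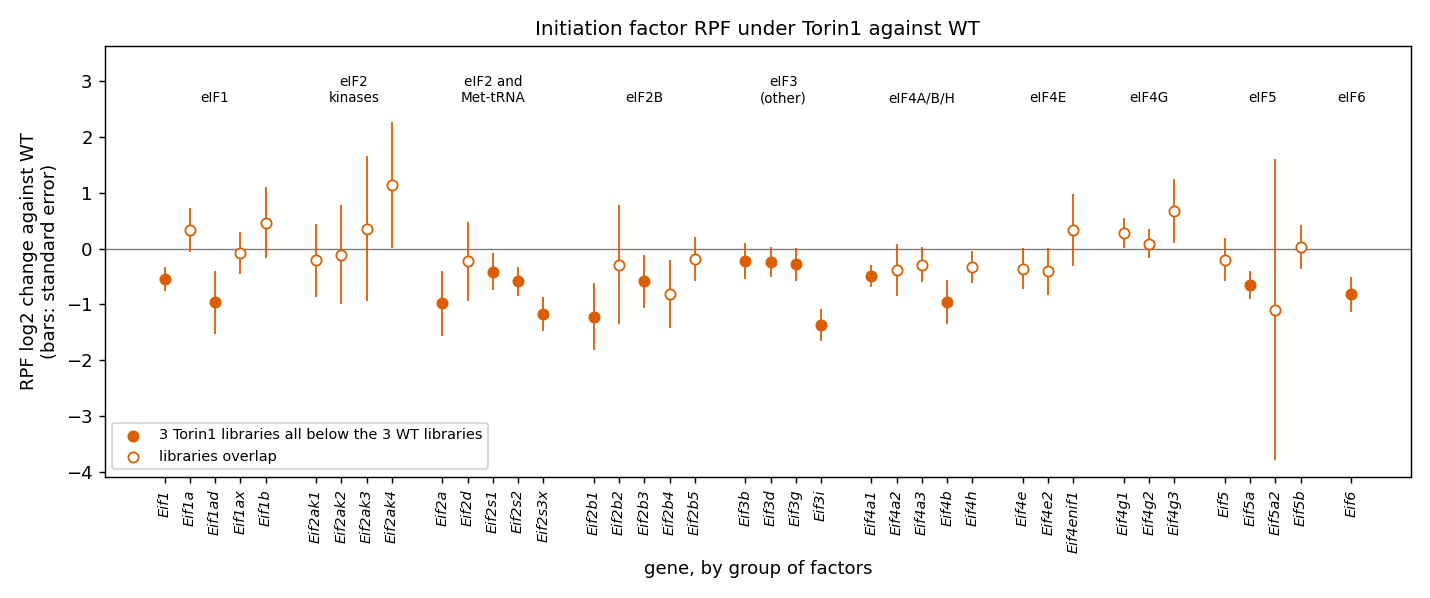
Log2 change of RPF under Torin1 against WT (y axis) for the 39 initiation factors tested (x axis, by group), with standard errors of the edgeR fit as bars. Filled points are the 16 genes whose 3 Torin1 libraries all lie below the 3 WT libraries; all 4 tested eIF3 genes are filled, and the 3 eIF4G genes are open and above 0.

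The subunits of eIF3 that lie outside the octamer showed the lowest single value. Eif3i, a WD-repeat subunit (chromosome 4 from 129591974 to 129600648, GRCm38.p6), was at 322, 380.3 and 447 CPM in the WT libraries and 148, 157 and 139 CPM in the Torin1 libraries. The highest Torin1 library was below the lowest WT library by a wide margin. The fitted log2 change was -1.37 ± 0.29 (SE), 38.7% of the WT level, with an edgeR adjusted p of 0.0717. This missed the threshold here and passed it in 4 of 12 alternative fits: DESeq2, limma-voom, no filter and the 2 groups alone. Eif3b, the scaffold on which Eif3i and Eif3g assemble, was at 565, 595 and 558 CPM in the WT libraries and 517, 528 and 429.6 CPM in the Torin1 libraries. Eif3d, a subunit that can itself bind the cap, was at 354, 393 and 423 against 314, 340.2 and 336 CPM, and Eif3g, an RNA-binding subunit, at 186, 175 and 194 against 156, 172 and 129.7 CPM. In each of these 3 genes the Torin1 libraries lay below the WT libraries by a narrow margin, and the log2 changes were -0.22, -0.24 and -0.28. Beside them, the octamer had a median log2 change of -1.07, where that of all genes was 0.03. In it 2 of 8 genes were called by edgeR, beside 0.749% of all genes. These were Eif3f at -1.94 ± 0.32 (edgeR adjusted p = 0.0160) and Eif3h at -1.39 ± 0.28 (edgeR adjusted p = 0.0487). Eif3f was called in 6 of 12 alternative fits and Eif3h in 3 of 12, and both calls were lost when any 1 of the 6 libraries was left out. The difference between the octamer and the other eIF3 subunits was not tested.

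All 5 genes of eIF2 and related factors lay below 0, with a median log2 change of -0.58. Eif2s3x, the gamma subunit that binds GTP and the initiator tRNA (chromosome X from 94188709 to 94212651), was at 447, 383 and 342 CPM in the WT libraries and 236, 127 and 155 CPM in the Torin1 libraries. The groups did not overlap, and the fitted log2 change was -1.18 ± 0.30, 44.2% of the WT level (edgeR adjusted p = 0.226; called by DESeq2 and limma-voom). Eif2s2, the beta subunit, was at 253, 246 and 289 against 162, 215 and 149 CPM, a log2 change of -0.58 ± 0.26. Eif2s1, the alpha subunit that is phosphorylated under stress, was at 173, 165 and 209 against 139, 148 and 125 CPM, a log2 change of -0.41 ± 0.34. Both genes had lower values in every Torin1 library, with narrower gaps than Eif2s3x. Eif2a, a factor separate from eIF2 that can deliver the initiator tRNA, was at 91.6, 97.7 and 112 against 51.9, 54.8 and 46.1 CPM without overlap (-0.98 ± 0.58), while Eif2d overlapped (-0.22 ± 0.71) and its sign changed when WT 3 or Torin1 1 was left out.

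Among the 35 members with a RefSeq promoter entry, Eif2s3x was the one whose annotated transcript start matched a terminal oligopyrimidine tract, searched on the transcribed strand as a C at the first base and at least 4 further bases of C or T. Of 27025 genes, 813 (3.01%) matched, beside 2.86% of the 35 members, so the members' share was near that of all genes. A run of at least 11 bases was found in 100 genes (0.370%), among them Eif2s3x and, in the octamer, Eif3f. That cut equals the length of the run in both genes, so this share does not measure how unusual they are. In the octamer 6 genes had a promoter entry, and Eif3f was the only 1 of them with a match at either length. Eif3i had no promoter entry and was not searched. The starts of Eif2s3x and Eif3f are shown beside those of Eif4b, Eif4a1 and Eif2b5, whose first bases did not match, to let the sequences be compared. Each line has 10 bases before the annotated start and 20 from it, 5′ to 3′, from RefSeq (GRCm38.p6); capitals mark the run of C and T that opens with C at the start.
Eif2s3x, chrX:94212632-94212661, minus strand: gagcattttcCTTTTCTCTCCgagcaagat
Eif3f, chr7:108934405-108934434, plus strand: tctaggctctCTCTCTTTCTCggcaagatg
Eif4b, chr15:102073763-102073792, plus strand: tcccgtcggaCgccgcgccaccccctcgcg
Eif4a1, chr11:69672404-69672433, minus strand: gtaacgtcacgtcgagttgcagagcgccgg
Eif2b5, chr16:20498807-20498836, plus strand: ctctttctctCCCTgcaactacaccttcgc
A match describes the annotated start alone, and starts in these cells were not measured.

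The 5 subunits of eIF2B, the exchange factor that reloads eIF2 with GTP, also all lay below 0, with a median log2 change of -0.58 and wide errors. Eif2b1, the regulatory alpha subunit, was at 56.0, 62.0 and 96.0 CPM in WT and 43.0, 9.73 and 39.3 CPM under Torin1. Its groups did not overlap, Torin1 2 was the lowest library, and the log2 change was -1.22 ± 0.60. Eif2b3 was at 78.5, 92.4 and 128 against 74.6, 77.2 and 47.8 CPM, the other eIF2B gene whose groups did not overlap. Eif2b5, the catalytic epsilon subunit, was at 118, 105 and 144 against 95.3, 131 and 95.5 CPM. Its groups overlapped, and its log2 change was -0.18 ± 0.40. Eif2b2, the beta subunit, was at 158, 136 and 137 against 115, 95.03 and 142 CPM, a log2 change of -0.29 ± 1.06. Eif2b4 overlapped as well (-0.82 ± 0.61).

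The 4 kinases that phosphorylate eIF2 stood on both sides of 0, with a median of 0.13. Eif2ak4 encodes GCN2, which senses uncharged tRNA, and it was at 42.9, 54.3 and 14.8 CPM in the WT libraries and 52.3, 127 and 67.8 CPM in the Torin1 libraries. The top WT library lay above the lowest Torin1 library, and the log2 change of 1.14 ± 1.12 was about as large as its error. Eif2ak1, which responds to haem, Eif2ak2, which responds to double-stranded RNA, and Eif2ak3, the kinase of the endoplasmic reticulum, had log2 changes of -0.21, -0.11 and 0.36, all with overlapping groups, and the sign of each changed when a single library was left out.

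In the group of eIF4A, eIF4B and eIF4H, all 5 genes lay below 0, with a median log2 change of -0.38. Eif4a1, the helicase of the cap-binding complex (chromosome 11 from 69666936 to 69672423), was at 5128, 4689 and 4006 CPM in the WT libraries and 3354, 3228 and 3243 CPM in the Torin1 libraries. The Torin1 libraries were close to each other and all lay below the WT libraries, for a log2 change of -0.49 ± 0.20 (71.1% of the WT level; edgeR adjusted p = 0.967, called by limma-voom alone). Eif4b, the cofactor of eIF4A that S6 kinases phosphorylate (chromosome 15 from 102073773 to 102097173), was at 404, 359 and 524 CPM in the WT libraries and 243, 111 and 311 CPM in the Torin1 libraries. The groups did not overlap, although the Torin1 libraries spanned from 111 to 311 CPM, and the log2 change was -0.95 ± 0.39 (adjusted p = 0.999). Eif4h, a relative of Eif4b, Eif4a2, the second helicase gene, and Eif4a3, the helicase of the exon junction complex, overlapped between groups, with log2 changes of -0.32, -0.38 and -0.29.

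RPF of all genes tested in the eIF4E and eIF4G groups overlapped between WT and Torin1. Eif4e, the cap-binding protein itself, was at 186, 150.2 and 209.8 CPM in the WT libraries and 134, 169 and 122 CPM in the Torin1 libraries, with overlapping groups and a log2 change of -0.36 ± 0.37. Eif4e2, a cap-binding relative known as a repressor, and Eif4enif1, the transporter that binds eIF4E, had log2 changes of -0.41 and 0.33. All 3 eIF4G genes lay above 0, with a median of 0.28. Eif4g1, the main scaffold, was at 407, 402 and 490.4 CPM in the WT libraries and 439.9, 571 and 570.1 CPM in the Torin1 libraries; its log2 change was 0.28 ± 0.27, and its groups overlapped. Eif4g2, a relative that lacks the eIF4E-binding site, had a log2 change of 0.09 ± 0.26, which fell below 0 with limma-voom or without Torin1 2, and Eif4g3 one of 0.68 ± 0.58.

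Of the factors that act at the start codon or at subunit joining, Eif1, which guards start codon selection, was at 579, 596 and 615 CPM in the WT libraries and 389, 430.3 and 412 CPM in the Torin1 libraries. The WT libraries lay close together, all Torin1 libraries were lower, and the log2 change was -0.54 ± 0.22 (68.8% of the WT level; adjusted p = 0.999). Eif1ad, named for its eIF1A domain, was also lower in every Torin1 library (-0.96 ± 0.57), while Eif1a, Eif1ax and Eif1b overlapped, with log2 changes of 0.33, -0.08 and 0.46; that of Eif1ax changed sign with limma-voom and without WT 1, WT 3 or Torin1 1. Eif1a and Eif1ax, like Eif1 and Eif1b, are close copies, so their split of reads is uncertain; any reads of Eif4a1 or Eif5a that also align elsewhere were likewise not counted. Eif5a, whose protein carries hypusine and also acts in elongation, was at 1585, 1819.7 and 2412 CPM in the WT libraries and 996, 1411 and 1293 CPM in the Torin1 libraries, without overlap, for a log2 change of -0.65 ± 0.24 (adjusted p = 0.834). Eif6, which keeps free large subunits apart from small ones, was at 206, 263 and 317 CPM in the WT libraries and 165, 134 and 148 CPM in the Torin1 libraries, again without overlap, for a log2 change of -0.82 ± 0.31 (adjusted p = 0.879). Eif5, the GTPase activator of eIF2, and Eif5b, the GTPase of subunit joining, overlapped, with log2 changes of -0.20 ± 0.39 and 0.03 ± 0.39; Eif5b was at 127, 140.0 and 142 against 158, 134 and 125 CPM. Eif5a2 was under 4 CPM in every WT and Torin1 library (-1.09 ± 2.69).

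Among 28 partners of initiation outside the Eif symbols or left out of the members (binding proteins, regulators and helicases), 1 was called under Torin1 in RPF, 3.57% beside 0.749% of all genes, and the median log2 change was -0.14, beside 0.03. Pabpc1, the poly(A)-binding protein that contacts eIF4G, was at 407, 486 and 397 CPM in the WT libraries and 74.2, 54.6 and 72.5 CPM in the Torin1 libraries. The groups were far apart, with a log2 change of -2.68 ± 0.29 (edgeR adjusted p = 0.00126), called in 12 of 12 alternatives. Pdcd4, an inhibitor of eIF4A, was at 15.6, 15.0 and 20.3 CPM in the WT libraries and 46.7, 61.9 and 103 CPM in the Torin1 libraries, higher without overlap. Its log2 change was 2.05 ± 0.54 (edgeR adjusted p = 0.230), called in 2 of 12 alternatives, DESeq2 and the 2 groups alone. Pdcd4 mRNA was at 0 reads in every WT and Torin1 library, so no mRNA change can be set beside it. Pdcd4 was the 1 partner higher without overlap, beside 8.48% of all genes. Lower without overlap were 6, 21.4% beside 10.7% of all genes: Pabpc1, Denr, Eif4ebp1, Eif4ebp2, Gcn1l1 and Ncbp2.

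No factor passed the test in mRNA, where WT libraries differed widely among themselves. Under Torin1, 0 of 39 genes were called, beside 0.014% of the 7121 genes tested, and 0 had an unadjusted p under 0.05, beside 7.12% of all genes; DESeq2 and limma-voom also called 0. The median log2 change was -0.19, beside 0.02 over all genes, and 24 of 39 lay below 0, beside 49.5%. Every Torin1 library lay above every WT library in 3 genes, beside 5.39% of all genes, and below in 2, beside 4.42%. Between the 3 WT libraries the median coefficient of variation of the 39 genes was 0.165 in RPF and 0.939 in mRNA. In mRNA, 10 genes had at least 100 CPM in one WT library and under 1 CPM in another, among them Eif1, Eif3d, Eif2b2 and Eif5b; in RPF 0 genes did. Eif1 was at 0.222, 352 and 13.7 CPM in the WT mRNA libraries and 67.1, 254 and 112 CPM in the Torin1 libraries. Eif5b was at 0.0554, 139.8 and 0.0753 against 0.0700, 241 and 54.2 CPM. The steadiest gene in WT mRNA was Eif3i, with a coefficient of variation of 0.183.

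**Figure D2:**
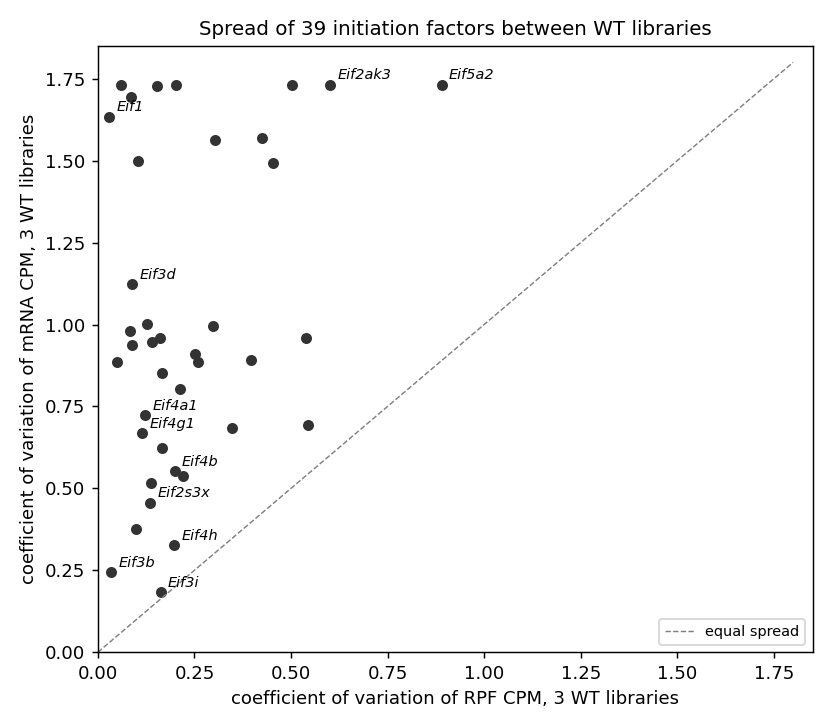
Coefficient of variation between the 3 WT libraries for each of the 39 genes, in RPF CPM (x axis) and mRNA CPM (y axis); the dashed line marks equal spread. The medians are 0.165 and 0.939, and Eif3i has the lowest mRNA value, 0.183.

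The mRNA levels of the factors described above were set beside their RPF. Eif4b mRNA was at 481, 289.5 and 887 CPM in WT and 1071, 1116 and 2566 CPM under Torin1. All Torin1 libraries lay above all WT libraries, opposite to its RPF, with an mRNA log2 change of 1.52 ± 0.81 (adjusted p = 0.717). The level in Torin1 3 depends on the scaling. TMM gave that library a factor of 0.799 and its near-identical library, mRNA C1483Y 2, a factor of 1.12. The DESeq2 size factors per read were 1.54 and 1.53. With TMM, Eif4b was at 2566 CPM in the former and 1807 CPM in the latter. All mRNA CPM given here rest on these TMM factors. Eif3i mRNA was at 489, 444 and 338 against 601, 1095 and 1036 CPM, again higher without overlap, with a log2 change of 1.104 ± 1.08 (adjusted p = 1). Eif5a mRNA was at 176, 503 and 265 against 194, 1116 and 852 CPM and overlapped (1.20 ± 0.96). Eif2s3x mRNA was at 359, 199 and 529.9 against 444, 277 and 228 CPM, and Eif4a1 mRNA at 3037, 6884 and 1534 against 3254, 2910.1 and 3663 CPM. The groups of both overlapped. Eif2ak4 mRNA was at 89.4, 299 and 111 CPM in WT and 3.43, 6.26 and 0.131 CPM under Torin1, lower without overlap (-5.67 ± 3.87). Eif4g1 mRNA was at 130.3, 808 and 662 against 455, 596 and 856 CPM, Eif4e at 212, 667 and 134 against 155, 329.7 and 416 CPM, and Eif6 at 184, 639 and 170.3 against 154, 352 and 81.7 CPM. These 3 overlapped between groups. Without the near-identical libraries, mRNA Torin1 3 among them, 0 of 39 factors were called in mRNA, and the log2 changes were 0.99 for Eif4b, 1.01 for Eif3i, 1.07 for Eif5a and -5.10 for Eif2ak4; Torin1 1 and 2 still lay outside the WT range for Eif4b, Eif3i and Eif2ak4.

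**Figure D3:**
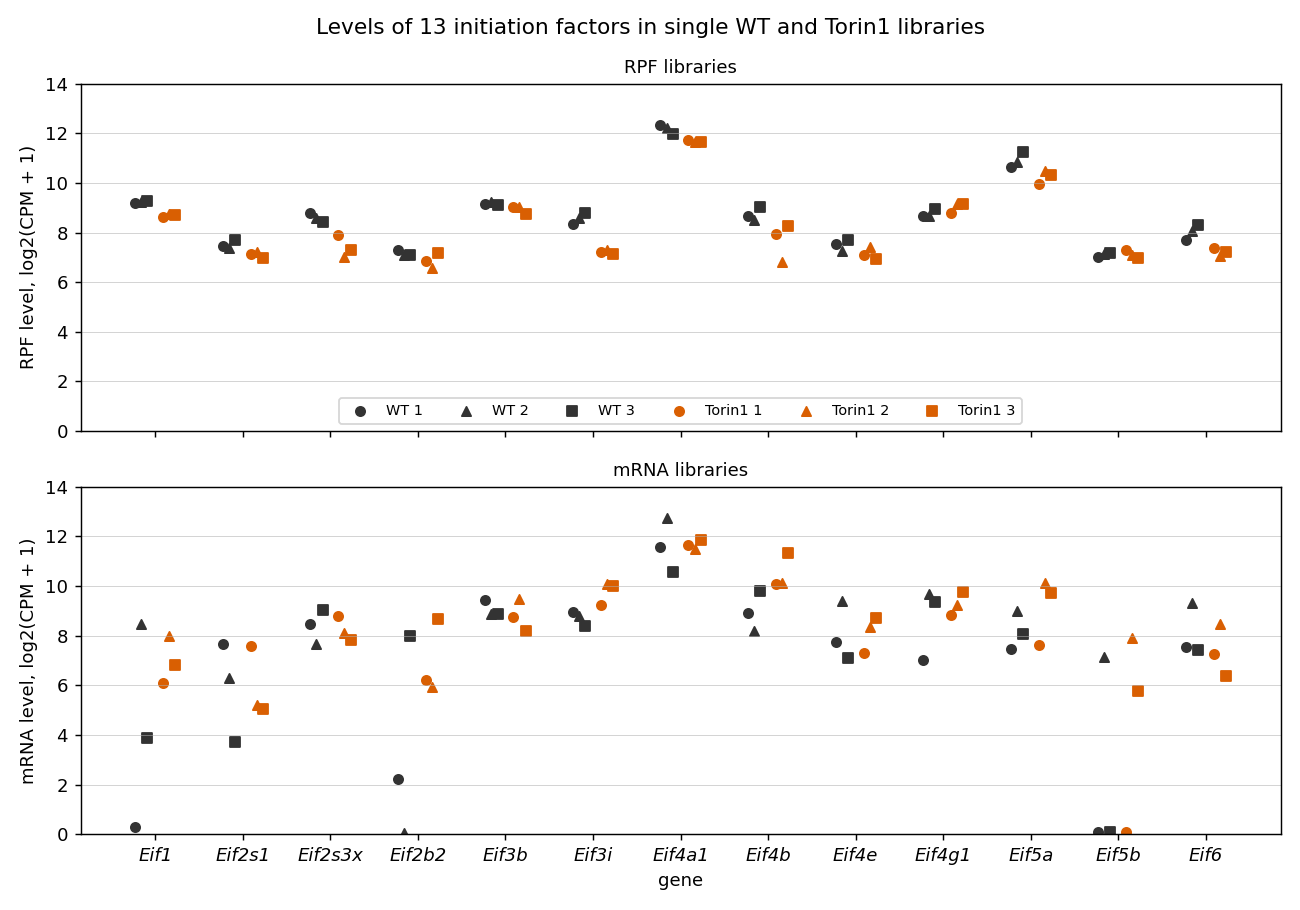
Levels of 13 initiation factors, as log2(CPM + 1), in each WT and Torin1 library, RPF above and mRNA below; colours give the group and marker shapes the library number. Eif3i RPF is separated between the groups, while the mRNA values of Eif1 and Eif5b in WT run from under 1 CPM to over 100 CPM.

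Translational efficiency (TE) is RPF divided by mRNA for a gene, and its change was taken from an interaction term in a joint model of both assays. The mRNA side of that model used TMM factors, which set the 2 near-identical mRNA libraries apart as described above. Under Torin1 against WT, 0 of 39 factors were called, beside 0.0283% of 7072 genes; 4 had an unadjusted p under 0.05, beside 11.1% of all genes, and DESeq2 called 1, Eif2ak4, and limma-voom 0. The median log2 change in TE was -0.02, beside -0.08 over all genes, and 21 of 39 lay below 0, beside 51.6%. The 4 factors were Eif4b at -2.42 ± 0.92 (adjusted p = 0.242), Eif3i at -2.42 ± 0.98 (adjusted p = 0.264), Eif5a at -1.79 ± 0.85 (adjusted p = 0.407) and Eif2ak4 at 6.88 ± 3.10 (adjusted p = 0.351). Eif2s3x, whose mRNA change of -0.20 ± 1.57 was not resolved, had a TE change of -0.92 ± 1.24. The share of members at this unadjusted level, 10.3%, was near that of all genes. Without the near-identical libraries 0 of 39 were called, and the TE changes were -1.87 for Eif4b, -2.32 for Eif3i, -1.65 for Eif5a and 6.31 for Eif2ak4.

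In the RPF libraries labelled C1483Y, initiation factors differed from WT in both directions. Of 39 genes 10 were called, 25.6%, beside 18.6% of all 11085 genes: 7 higher (7.91% of all genes) and 3 lower (10.7%). The count ran from 7 to 14 over the alternatives. At an unadjusted p under 0.05 there were 16 genes, beside 31.8% of all genes. The libraries did not overlap in 14 genes that were higher, beside 16.5% of all genes, and in 7 that were lower, beside 27.4%. The median log2 change was 0.57, beside -0.27 over all genes, and 13 of 39 lay below 0, beside 55.6%. These 3 libraries are those with fibroblast markers at 267 to 762 ppm against at least 12716 in WT, with neuronal and glial markers at 868 or more, and the part of this difference in the results was not tested; no RPF library labelled C1483Y was free of it. The higher genes were Eif1, Eif1a, Eif3i, Eif4a1, Eif4a2, Eif4g2 and Eif5a, and the lower genes Eif2ak2, Eif4g1 and Eif5b. The Torin1 and C1483Y comparisons share their WT libraries.

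**Figure D4:**
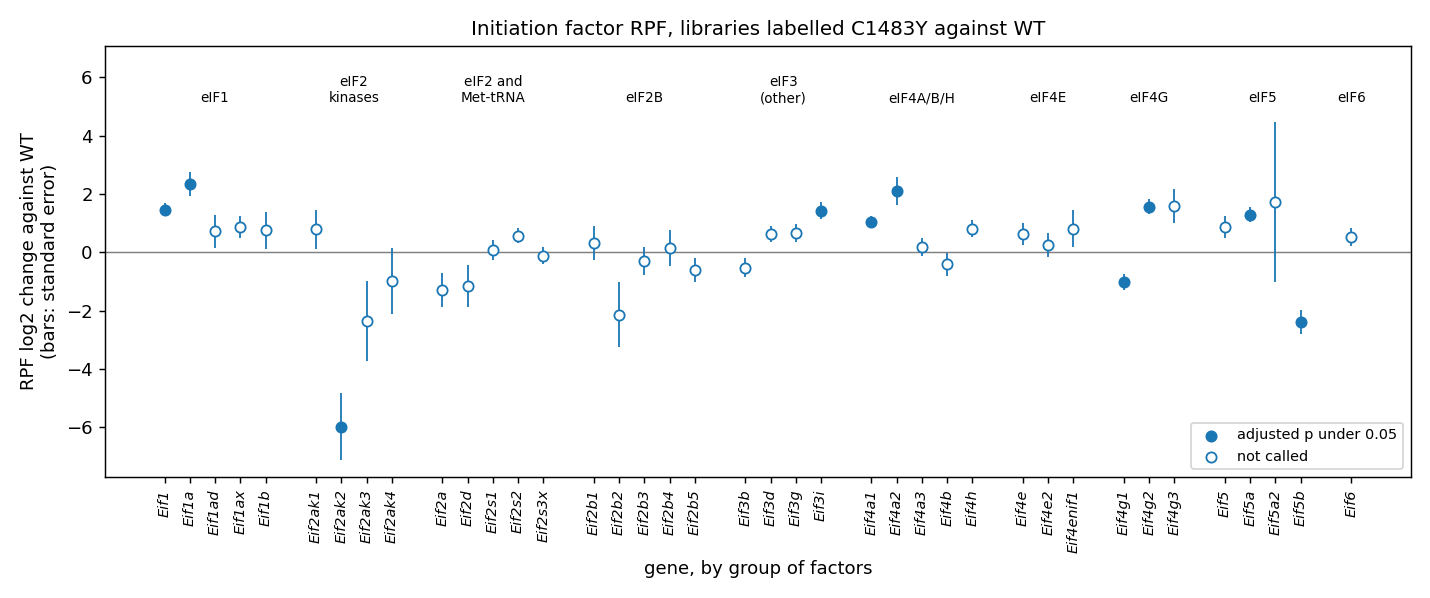
Log2 change of RPF in the libraries labelled C1483Y against WT (y axis) for the 39 initiation factors tested (x axis, by group), with standard errors of the edgeR fit as bars. Filled points are the 10 genes called at an adjusted p under 0.05, 7 above 0 and 3 below.

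Among the higher genes, Eif1 was at 579, 596 and 615 CPM in the WT libraries and 1937, 1631 and 1369 CPM in the C1483Y libraries, a fold change of 2.76 (log2 1.46 ± 0.22; edgeR adjusted p = 0.00130). Eif1a, which encodes eIF1A, the scanning partner of eIF1, was at 57.8, 54.9 and 84.9 against 476, 323 and 210.4 CPM, a log2 change of 2.35 ± 0.41. Neither gene had overlapping groups. Eif4a1 was at 5128, 4689 and 4006 CPM in WT and 10726, 8414 and 9162 CPM in C1483Y, 2.05-fold higher (log2 1.03 ± 0.20). Eif4a2 was at 139, 166 and 78.8 against 509, 881 and 248 CPM, with a wide spread in C1483Y and a log2 change of 2.09 ± 0.48; the call was lost without WT 1 or WT 3. Both helicase genes were higher in every C1483Y library. Eif3i was at 322, 380.3 and 447 against 748, 1446 and 900.1 CPM, higher in every library (1.43 ± 0.29), and lost its call without WT 1. Eif5a was at 1585, 1819.7 and 2412 against 5635, 4458 and 4204 CPM (1.30 ± 0.25), and Eif4g2 at 365, 387 and 318 against 1203, 859 and 1118 CPM (1.57 ± 0.27). In both the lowest C1483Y library lay above the highest WT library.

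Among the lower genes, Eif5b was at 127, 140.0 and 142 CPM in the WT libraries and 29.5, 14.8 and 34.1 CPM in the C1483Y libraries, 19.2% of the WT level (log2 -2.38 ± 0.41; edgeR adjusted p = 0.00260). Eif2ak2, which encodes the kinase PKR, was at 39.5, 26.3 and 32.2 CPM in WT and 1.14, 0.195 and 0.224 CPM in C1483Y, close to 0 in all 3 (-5.97 ± 1.14). Eif4g1 was at 407, 402 and 490.4 against 161, 275 and 212 CPM, 49.9% of the WT level (-1.003 ± 0.28; adjusted p = 0.0275). Its groups did not overlap, yet the call held in 5 of 12 alternatives, while Eif5b, Eif2ak2, Eif1, Eif1a, Eif4a1, Eif4g2 and Eif5a were called in 12 of 12. The scaffold genes of the eIF4G group lay on opposite sides, Eif4g1 lower and Eif4g2 higher, with Eif4g3 at 1.58 ± 0.59 (adjusted p = 0.0858).

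None of the 5 eIF2 genes and none of the 5 eIF2B genes was called, with medians of -0.11 and -0.29 beside -0.27 over all genes. Eif2b2 was at 158, 136 and 137 CPM in WT and 44.3, 0 and 53.4 CPM in C1483Y, lower without overlap but with a large error (-2.14 ± 1.11). Eif4h (0.82 ± 0.29, adjusted p = 0.0697) was higher in every library, and Eif4b (-0.41 ± 0.38), Eif4e and Eif6 overlapped. Of the 28 partners, 6 were called, 21.4%, which is near the 18.6% of all genes. Pdcd4 at 3.50, Paip2, an inhibitor of the poly(A)-binding protein, at 2.75, and Mcts1, a partner of Denr in re-initiation, at 2.70 were higher. Dohh, an enzyme of hypusine synthesis, at -5.72, Impact, an inhibitor of GCN2, at -3.50, and Ppp1r15b, a phosphatase subunit for eIF2, at -2.57 were lower.

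In the mRNA libraries labelled C1483Y, 0 of 39 factors were called by edgeR, beside 0.323% of 7121 genes, and 3 had an unadjusted p under 0.05, beside 8.72%. These were Eif4b at 2.31 ± 0.83, Eif5a at 2.76 ± 1.01 and Eif4g2 at 2.56 ± 1.00. Eif4b mRNA was at 481, 289.5 and 887 against 3779, 1807 and 2604 CPM and Eif5a mRNA at 176, 503 and 265 against 3445, 631 and 2334 CPM, both without overlap. Eif4g2 mRNA was at 246, 397 and 545 against 2672, 343 and 3968 CPM, with library 2 inside the WT range. DESeq2 called 4 factors, Eif4a2 and these 3, and limma-voom 0. Without C1483Y 2, the library close to mRNA Torin1 3, edgeR called these 3. Without both of those libraries it called 2, Eif4g2 and Eif5a. The shares of all genes called in these alternatives were not compared. The median over all genes was -0.50 with TMM scaling and 0.99 with DESeq2 size factors, while that of the 39 factors was 0.11 with TMM. The libraries did not overlap in 4 factors that were lower, beside 9.49% of all genes, and in 3 that were higher, beside 3.23%; 18 of 39 lay below 0, beside 56.8%. In TE, 0 of 39 were called, beside 0% of 7072 genes, and 4 had an unadjusted p under 0.05, beside 13.5%, with 16 of 39 below 0, beside 47.4%; Eif4b was at -2.55 ± 0.92 (edgeR adjusted p = 0.228), and DESeq2 called that gene alone and limma-voom 0. The TE median over all genes was 0.19 with TMM and -1.70 with DESeq2 size factors.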

How the data were processed

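RPF and mRNA were measured in 3 groups of 3 libraries each. The authors deposited whole-number counts of reads per gene, without normalization, for each library. Per the submitters' processing notes, Bowtie 1.1.2, TopHat2 2.1.1, HTSeq and the build mm10 were used; how they were set is not given in the sources used here. Per the labels' protocols, RPF were made with RNase I, and mRNA was fragmented by heat. Reads aligned to more than 1 place (22.2% to 47.5% of all lines in RPF, 49.3% to 95.9% in mRNA) and outside genes (4.28% to 27.0% of gene plus such reads in RPF, 17.3% to 34.4% in mRNA) had summary lines of their own and were left out, as were 27 lines named by dates (at most 0.264% of gene reads). No molecular identifiers are mentioned, so counts and the floor of 3 reads cover counting error only.

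Counts were tested with edgeR 4.0.16 in R 4.3.3 (quasi-likelihood, TMM factors, filterByExpr with a minimum count of 10, all 9 libraries of an assay; TE over all 18 libraries), adjusted by Benjamini and Hochberg's method across every gene tested in each of 6 comparisons. Median biological coefficients of variation were 0.9 (RPF), 2.19 (mRNA) and 1.62 (TE). Standard errors come from the F statistic. CPM are scaled by TMM over genes past the filter. Alternatives were DESeq2 1.42.0, limma-voom (limma 3.58.1), DESeq2 size factors, no filter, the compared groups alone, a replicate block, each library left out, no near-identical libraries and, for TE, TMM over all libraries. The procedure was tested on simulated data with a smaller spread between libraries than the median biological coefficients of variation above. That test does not show what the procedure recovers at the spread of these data.

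Values in every library are given for the 5 members with the smallest p in RPF under Torin1, the member of each group with the highest WT RPF level, 10 factors chosen for their role, and the members called in C1483Y RPF; other members are given where they show their group. Members and lists were chosen with earlier results of these data known. All 43 members matched RefSeq symbols and 35 had a promoter entry (GRCm38.p6).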

Additional observations from a re-analysis of the deposited data

How the results depend on the processing

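The count of members called in RPF under Torin1, 0, became 2 with DESeq2 (Eif2s3x and Eif3i), 3 with limma-voom (with Eif4a1), and 1 (Eif3i) without a filter and with the 2 groups alone; it was 0 whenever 1 library was left out. The 16 factors lower without overlap became 13 with DESeq2 size factors, a setting added after seeing the data, beside 8.92% of all genes. In TE under Torin1 the count became 1 with DESeq2. For C1483Y, the mRNA count of 0 became 4 with DESeq2 and 2 without the near-identical libraries, and ran from 0 to 3 when single libraries were left out; the TE count of 0 became 1 with DESeq2 and 1 without the near-identical libraries (Eif4a3). The RPF count of 10 ran from 7 to 14 when single libraries were left out. The counts of members called in the alternatives were not set beside the share of all genes called in the same fit. In RPF under Torin1, log2 changes near 0 changed sign: with limma-voom Eif1ax went to 0.12, Eif4g2 to -0.001598 and Eif5b to -0.014. With single libraries left out, Eif1ax ran from -0.29 to 0.13, Eif2ak1 from -0.56 to 0.14, Eif2ak2 from -0.30 to 0.27, Eif2ak3 from -0.0626 to 0.74, Eif2b5 from -0.36 to 0.00738, Eif2d from -0.61 to 0.31 and Eif4g2 from -0.13 to 0.25. The causes were not tested.

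Whether replicate numbers pair the libraries was not settled. Correlations of same-numbered deviations ran from 0.035 to 0.142 between RPF of WT and Torin1, and not every pair was over 0.1. RPF levels of WT 1 correlated more closely with Torin1 1 (r = 0.988) than with WT 2 (0.982) or WT 3 (0.953). WT 2 with Torin1 2 and WT 3 with Torin1 3 were at 0.926 and 0.925, below their correlations with WT 1. The Tmem38b share was lowest in library 2 of each RPF group. A batch shared by number was not tested. With a replicate block the counts were 0, 0 and 0 for RPF, mRNA and TE under Torin1, and 10, 0 and 0 for C1483Y.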
